A study of Mus musculus with 30 samples.

Results

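The BCL2 family genes described here are 10 of the 57186 genes in the count table of a cycloheximide time course in 2 mouse cell lines. They were chosen by name, as the rows whose Ensembl identifier, with its version suffix removed, maps to Mcl1, Bcl2, Bcl2l1, Bcl2l11, Bbc3, Pmaip1, Bax, Bak1, Bid or Bmf. Each symbol matched 1 row. The fibroblast line NIH/3T3 was kept in DMEM with fetal bovine serum. CGR8 cells, which are embryonic stem cells, were kept in N2B27 with 2i/LIF. Both lines, at every time and at 0 h too, carried the knock-in that the labels call ROSA26 SLT and do not describe further. Cycloheximide, a drug that stops ribosomes from elongating proteins, was given at 0.1 µg/mL. How far translation fell at this dose is not known from these data. Replicates A, B and C of each line were collected at 0, 1, 2, 5 and 48 h, which gave 30 libraries in 10 groups of 3. The labels give the 0 h libraries the same cycloheximide treatment as the rest, and they were taken as untreated because their time is 0 h, an assumption on which every change against 0 h rests. The labels do not say whether the replicates were separate cultures, so p-values measure only the spread between these libraries, which may be technical. The comparisons ask how RNA levels in each line differed from 0 h after the drug, and whether the lines differed in this. The series holds no untreated libraries at 1, 2, 5 or 48 h. The drug and time in culture therefore cannot be told apart in any change against 0 h. A response to cycloheximide here means such a change. Each line had its own medium, so line and medium cannot be told apart in any difference between the lines.

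Proteins of the BCL2 family control whether the outer membrane of the mitochondrion is opened in apoptosis. MCL1, BCL2 and BCL-XL, the product of Bcl2l1, oppose death by holding the pore formers BAX and BAK and by binding the BH3-only proteins. The BH3-only proteins BIM (gene Bcl2l11), PUMA (Bbc3), NOXA (Pmaip1), BID and BMF promote death by occupying the protectors or by activating the pore formers. MCL1 protein is short-lived and is degraded by the proteasome, so its level depends on continued translation, and NOXA binds it and favours its degradation. RNA alone was measured here, and no protein level is known for any member.

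Library totals ranged from 18216993 to 30503109 counts (mean 24198150 ± 2953128, SD, n = 30). Levels are given as CPM, counts scaled to a library of fixed size, with library totals multiplied by TMM factors computed within each line. Of the markers checked, 6 of stem cells (such as Pou5f1 and Nanog) reached at most 0.383 CPM in NIH/3T3 and at least 375 CPM in CGR8. For 4 of fibroblasts (such as Col1a1 and Lox) the highest CGR8 value was 0.726 CPM and the lowest NIH/3T3 value 218 CPM. Within CGR8 at 5 h, replicates A and B had TMM factors of 0.923 and 0.907 and mitochondrial transcript shares of 0.262% each, against 0.999 and 0.438% in replicate C. Bcl2, Bax, Bak1 and Bid overlap other annotated genes, and Bcl2, Bak1 and Bid do so on the opposite strand, Bak1 with Ggnbp1 and Bid with Bcl2l13. Whether the counting used strand is not given in the sources used here, so some reads of these genes may belong to their neighbours.

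Mcl1, a protector, and Bbc3, a killer, were called in opposite directions at 2 h in both lines, and the 250 bases before their start sites are shown for that reason. The sequences are from RefSeq on GRCm38.p6, given 5′ to 3′ on the strand of the gene, with GC boxes (GGGCGG on either strand) in capitals. The Mcl1 stretch lies at chr3:95658471-95658720 on the plus strand. That of the first listed start site of Bbc3 lies at chr7:16309333-16309582 on the plus strand.
Mcl1: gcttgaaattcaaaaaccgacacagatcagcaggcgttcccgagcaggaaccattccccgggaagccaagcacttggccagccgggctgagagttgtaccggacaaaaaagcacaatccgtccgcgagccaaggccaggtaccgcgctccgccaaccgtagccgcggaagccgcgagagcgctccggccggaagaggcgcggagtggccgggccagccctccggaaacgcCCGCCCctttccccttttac
Bbc3: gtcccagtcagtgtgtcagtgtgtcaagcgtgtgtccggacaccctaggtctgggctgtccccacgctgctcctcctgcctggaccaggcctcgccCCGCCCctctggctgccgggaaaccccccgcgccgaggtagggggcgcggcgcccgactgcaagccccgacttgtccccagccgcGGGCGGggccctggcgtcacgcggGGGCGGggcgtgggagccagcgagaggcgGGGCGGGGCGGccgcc
The Mcl1 stretch is 64.4% G or C with 26 CpG pairs and holds 1 GC box, at -20 to -15 from the start site. The Bbc3 stretch is 76.4% G or C with 27 CpG pairs and holds 5, of which the last overlaps its neighbour by 1 base, at -16 to -11 and -11 to -6. A GC box occurs in 32.7% of the 32851 promoter stretches of the same length and in 9 of the 16 stretches of the 9 members used. Pmaip1 was not searched. Some members have several start sites among the 16, so these stretches are not independent of each other. Of the other motifs searched on both strands, the cAMP response element half-site (TGACG, in 17.8% of all stretches) occurs in the Bbc3 stretch at -55 to -51. Neither stretch holds the CArG box, the p53 half-site or the CCAAT box (CCAAT), which occur in 1.47%, 7.13% and 33.8% of all stretches. Start sites 2 and 3 of Bbc3, which are not shown, differ from the first. Site 2 holds a GC box at -240 to -235, and site 3 holds several GC boxes and a CCAAT box at -100 to -96. A match is a description of letters, not of a bound factor.

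Changes were tested with edgeR's quasi-likelihood test over all genes, and a gene was called at a Benjamini-Hochberg adjusted p under 0.05. Every share of all genes called counts both directions together. In NIH/3T3, 9 of the 10 members passed the filter on low counts, since Pmaip1 had almost no counts there, and in CGR8 all 10 did. At 1 h, 0 of 9 members were called in NIH/3T3, where 0.732% of all genes were, and 0 of 10 in CGR8, where 0.270% were. Without adjustment, 2 members in NIH/3T3 (Mcl1 and Bbc3) and 4 in CGR8 (Mcl1, Bbc3, Bcl2l11 and Bak1) had p under 0.05 at 1 h. DESeq2 called 1 and 2 members at 1 h in NIH/3T3 and CGR8, and voom with sample quality weights called 2 and 3. At 2 h, 2 of 9 were called in NIH/3T3 (35.0% of all genes) and 3 of 10 in CGR8 (19.9%). At 5 h, 4 of 9 were called in NIH/3T3, all 4 lower (51.0%). In CGR8 5 of 10 were called then, 2 higher and 3 lower (52.1%). At 48 h, 4 of 9 were called in NIH/3T3, 3 of them higher (52.3%), and 7 of 10 in CGR8, 5 of them lower (27.8%). The median log2 change of the tested members at 5 h was -0.44 in NIH/3T3 and -0.08 in CGR8, beside -0.01 over all genes in each line. At 48 h this median was 0.16 for NIH/3T3 and -0.29 for CGR8, beside -0.01 and -0.00. All these comparisons share the 0 h libraries of their line.

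**Figure D1:**
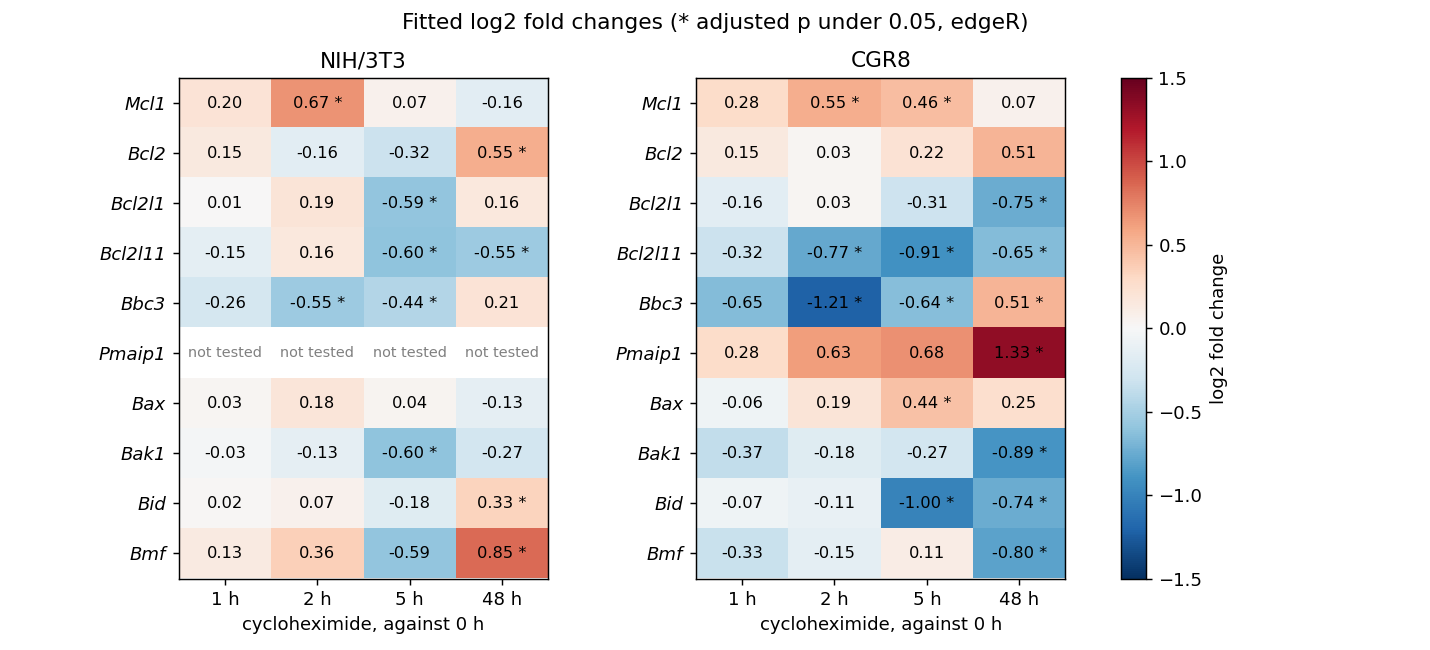
Fitted log2 fold change of each member at 1, 2, 5 and 48 h of cycloheximide against 0 h, in NIH/3T3 (left) and CGR8 (right); red cells are higher, blue cells lower, and a star marks an adjusted p under 0.05. The starred cells include Mcl1 at 2 h in both lines (0.67 and 0.55), Bcl2l11 at 5 h and 48 h in both lines, and Bid in opposite directions at 48 h (0.33 and -0.74).

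Among the protectors, Mcl1 rose at 2 h in both lines and was not called at 48 h in either, while at 5 h it was still higher in CGR8 alone, a difference between the lines that is tested further on. In NIH/3T3, Mcl1 stood at 166, 168 and 163 CPM at 0 h (replicates A, B and C in turn), 184, 200 and 186 after 1 h and 266, 256 and 268 after 2 h. It then stood at 176, 171 and 174 CPM after 5 h and 151, 146 and 148 after 48 h. The 2 h libraries were thus the highest of this line, and those of 48 h the lowest. In CGR8 Mcl1 stood at 308, 313 and 314 CPM at 0 h, 353, 388 and 393 after 1 h and 471, 427 and 470 after 2 h. It was at 439, 432 and 417 CPM after 5 h and 327, 327 and 329 after 48 h, so that the 2 h and 5 h libraries overlapped each other and lay above all the rest of the line. Every CGR8 library was above every NIH/3T3 library. The rise at 2 h was 1.59-fold in NIH/3T3 (log2 0.67 ± 0.07, SE, adjusted p = 3.96e-06) and 1.46-fold in CGR8 (0.55 ± 0.08, adjusted p = 0.000497).

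At 5 h the log2 change of Mcl1 was 0.07 in NIH/3T3 (95% interval -0.07 to 0.22), and in CGR8 Mcl1 was 1.38-fold higher than at 0 h (0.46 ± 0.08, adjusted p = 0.000258). From 2 h to 5 h, a comparison added after the data were seen, Mcl1 fell in NIH/3T3 by 0.60 on the log2 scale (adjusted p = 9.21e-06). The same change in CGR8 was -0.09 with an interval of -0.26 to 0.09. In that comparison 5 of 9 members were called in NIH/3T3 (23.1% of all genes) and 2 of 10 in CGR8 (19.1%). At 48 h Mcl1 was not called in either line, with log2 changes of -0.16 (interval -0.30 to -0.01, adjusted p = 0.0615) in NIH/3T3 and 0.07 (interval -0.10 to 0.25) in CGR8. DESeq2, voom and a fit of the compared groups alone called the NIH/3T3 value, with adjusted p of 0.00715, 0.00217 and 0.00982. At 1 h the changes were 0.20 and 0.28 (adjusted p = 0.254 and 0.267), which DESeq2 called with adjusted p of 0.0473 and 0.0353 and voom with 0.0059 and 0.00186. The samples are bulk RNA, in which fewer cells of a kind and less RNA per cell cannot be told apart.

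**Figure D2:**
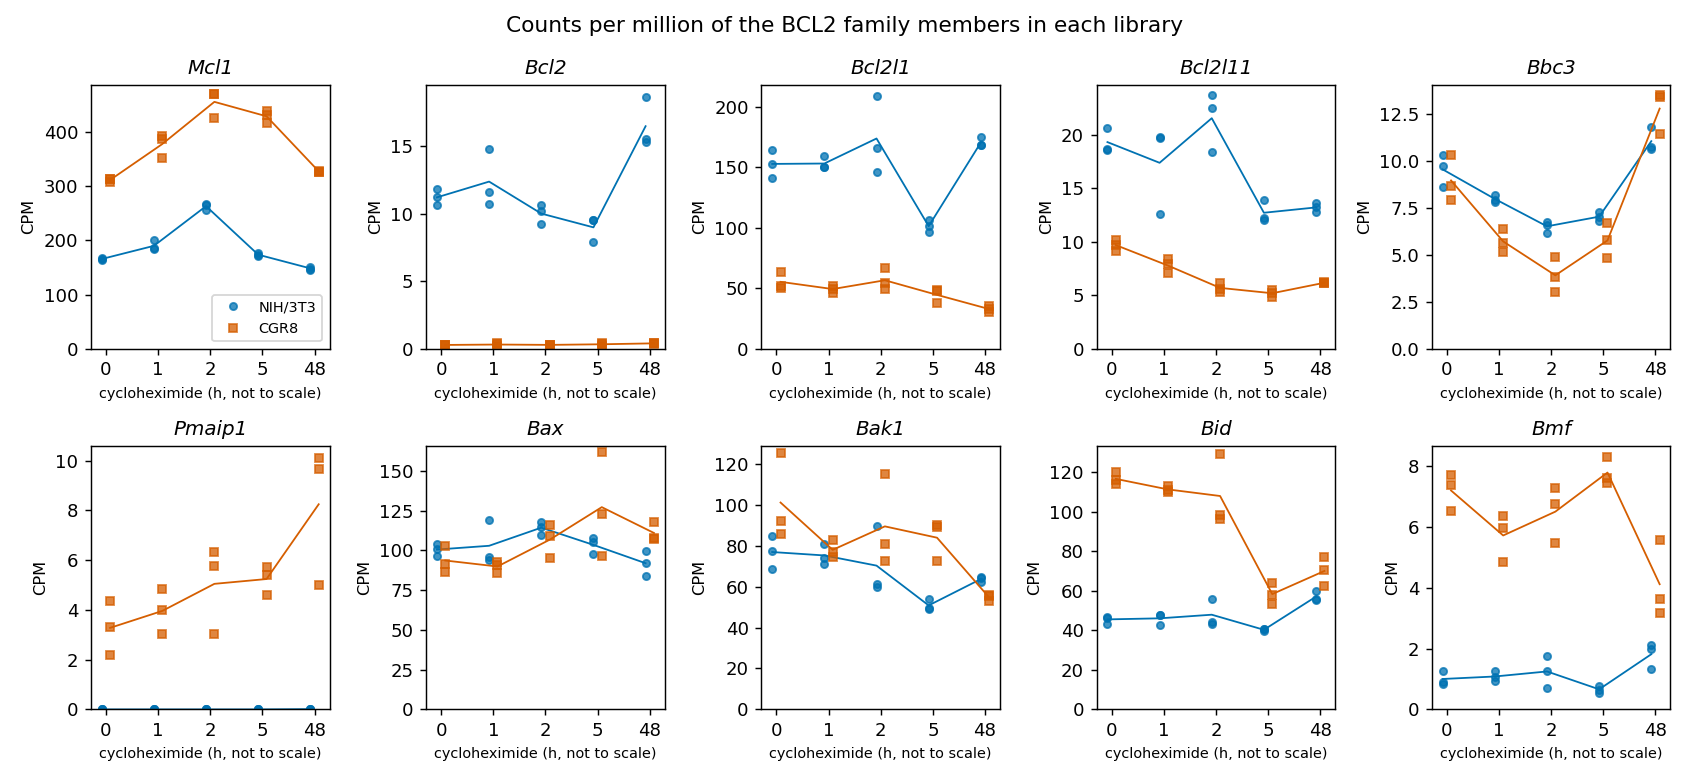
CPM of each member in every library at 0, 1, 2, 5 and 48 h of cycloheximide, with NIH/3T3 as blue circles and CGR8 as orange squares; lines join the means of 3 libraries, and the times are evenly spaced, not to scale. Mcl1 has its highest mean at 2 h in both lines, Bid is lower at 5 h than at 2 h in CGR8, and Pmaip1 lies at 0 in 14 of the 15 NIH/3T3 libraries.

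Bcl2l1, which encodes the protector BCL-XL, was called lower at 5 h in NIH/3T3 and at 48 h in CGR8. In NIH/3T3 its level was 141, 153 and 164 CPM at 0 h, 150, 150 and 159 after 1 h and 209, 146 and 166 after 2 h. It was 101, 96.7 and 106 CPM after 5 h and 168, 168 and 175 after 48 h. The 5 h libraries were the lowest of this line, and replicate A at 2 h was the highest. CGR8 had 51.9, 63.3 and 50.5 CPM at 0 h, 46.3, 49.5 and 52 after 1 h and 66.6, 54 and 49 after 2 h. It had 47.8, 48.1 and 37.5 CPM after 5 h and 34.9, 32.9 and 30.4 after 48 h, the last being the lowest of the line. The fall at 5 h in NIH/3T3 was to 0.663 of the 0 h level (log2 -0.59 ± 0.11, adjusted p = 0.000236), and by 48 h Bcl2l1 had risen from there by 0.76 ± 0.11 (adjusted p = 1.18e-05). In CGR8 Bcl2l1 fell at 48 h to 0.593 of the 0 h level (-0.75 ± 0.13, adjusted p = 0.000609).
The CGR8 change at 5 h was -0.31 (interval -0.60 to -0.03, adjusted p = 0.0605), which was called with library size alone for scaling (-0.42, adjusted p = 0.00662) and with a replicate block (-0.32, adjusted p = 0.0475). In NIH/3T3 the change at 2 h of 0.19 was called without replicate B of 2 h (0.30, adjusted p = 0.0426). That at 48 h, 0.16, was called with library size alone (adjusted p = 0.0454), by voom (0.00157) and with the groups alone (0.0222).

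Bcl2, the founding protector of the family, was found in NIH/3T3 and was near 0 in CGR8. Its level in NIH/3T3 was 11.8, 11.2 and 10.6 CPM at 0 h, 11.6, 14.8 and 10.7 after 1 h and 10.2, 10.6 and 9.2 after 2 h. It was 7.9, 9.52 and 9.52 CPM after 5 h and 15.5, 15.3 and 18.6 after 48 h. The libraries at 48 h were above all others of the line, and Bcl2 was 1.47-fold higher than at 0 h (log2 0.55 ± 0.13, adjusted p = 0.00192). At 5 h the change was -0.32 (interval -0.60 to -0.04, adjusted p = 0.0542), a value that voom and a fit of the compared groups alone called, with adjusted p of 0.0116 and 0.0149. In CGR8, Bcl2 had 4 to 11 counts per library (0.176 to 0.444 CPM), and no change was detectable at this depth, with an interval at 48 h of -0.25 to 1.27.

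Per kilobase of merged exon, Mcl1 made up most of the transcripts of the 3 protectors in both lines. With the median length of coding transcripts in its place, the NIH/3T3 share of Mcl1 was 44.8% at 0 h, 48.1% at 1 h and 39.2% at 48 h. Each of these was below the share of Bcl2l1 and Bcl2 together. Per kb of merged exon, the Mcl1 share of the summed CPM per kb of Mcl1, Bcl2l1 and Bcl2 was 58.5% ± 2.01 (SD, n = 3) at 0 h in NIH/3T3 and 66.6% ± 3.63 after 2 h. It was 68.9% ± 0.806 after 5 h and 52.7% ± 0.843 after 48 h. The libraries of every later time lay outside the range of those at 0 h, below it at 48 h and above it otherwise. In CGR8 the share was 88.3% ± 1.28 at 0 h, 91.5% ± 1.17 after 2 h, 92.8% ± 0.76 after 5 h and 93% ± 0.452 after 48 h. Every later CGR8 library was above those at 0 h. With median transcript length the share after 5 h was 56.2% in NIH/3T3, and in CGR8 it was 81.2%, 88.1% and 88.4% at 0, 5 and 48 h.

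**Figure D3:**
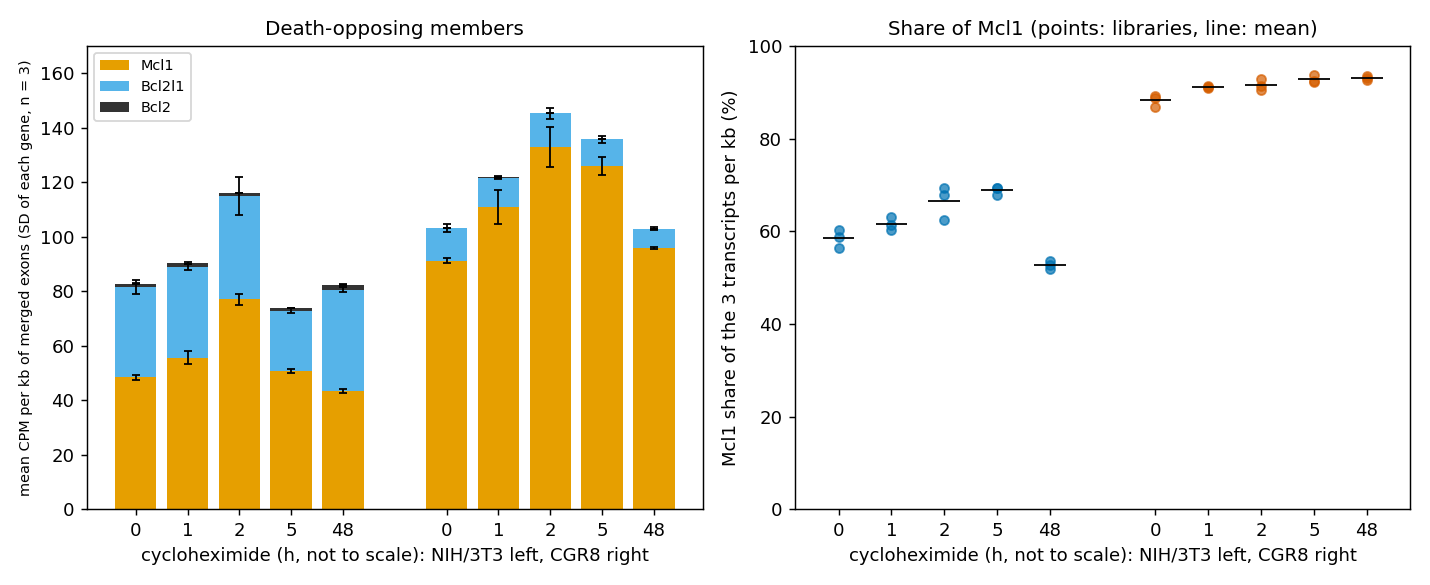
Left: mean CPM per kb of merged exon of Mcl1 (orange), Bcl2l1 (blue) and Bcl2 (black), stacked, with the SD of each gene over 3 libraries at the top of its segment; right: Mcl1 share of that sum, with points for libraries and a line for the mean, at 0, 1, 2, 5 and 48 h (evenly spaced, not to scale). In NIH/3T3 the share goes from 58.5% at 0 h to 68.9% at 5 h and 52.7% at 48 h; in CGR8 it stays between 86.9% and 93.7% in every library.

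Of the pore formers, Bak1 was called lower in both lines at different times, and Bax was called higher at 5 h in CGR8. Bax, whose product moves to the mitochondrion to form pores, ranged from 84.2 to 119 CPM over the 15 NIH/3T3 libraries. Its log2 changes against 0 h there ran from -0.13 to 0.18 with none called, and voom called the value at 2 h (0.22, adjusted p = 0.0126). In CGR8, Bax was at 91.5, 103 and 86.5 CPM at 0 h, 86, 93 and 90.7 after 1 h and 109, 95.2 and 116 after 2 h. It was at 162, 123 and 96.7 CPM after 5 h and 118, 108 and 107 after 48 h. Replicate C at 5 h overlapped the 0 h libraries, and replicate A was the highest of the line. The rise at 5 h was 1.36-fold (log2 0.44 ± 0.14, adjusted p = 0.0172). It was not called without replicate A of 5 h (0.25, adjusted p = 0.114), without replicate A of 0 h (0.42, adjusted p = 0.0555) or without replicate C of 0 h (0.38, adjusted p = 0.0718). Nor was it called with both groups fitted alone (0.44, adjusted p = 0.0717), and over all alternatives the adjusted p ran from 0.000489 to 0.114. At 48 h the change was 0.25, called by voom (0.29, adjusted p = 0.0115). The lower TMM factors and mitochondrial shares of replicates A and B at 5 h go with these Bax levels, and their part in the rise was not tested.

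Bak1 encodes the pore former BAK, which resides on the mitochondrion and is held by MCL1 and BCL-XL. In NIH/3T3 it was at 77.4, 68.7 and 84.5 CPM at 0 h, 70.8, 74 and 80.8 after 1 h and 89.6, 60 and 61.1 after 2 h. Then came 54, 49 and 49.4 CPM after 5 h and 64, 64.6 and 62.4 after 48 h. The 5 h libraries were the lowest of the line. CGR8 libraries held 92.2, 125 and 85.9 CPM at 0 h, 77.1, 82.5 and 74.2 after 1 h and 115, 80.8 and 72.4 after 2 h. They held 90, 89.2 and 72.4 CPM after 5 h and 55.5, 55.7 and 52.8 after 48 h, the last being the lowest. Replicate A at 2 h in both lines and replicate B at 0 h in CGR8 stood well above their group, as they did for Bcl2l1. Bak1 fell at 5 h in NIH/3T3 to 0.661 of its 0 h level (log2 -0.60 ± 0.13, adjusted p = 0.00105), and at 48 h in CGR8 to 0.541 (-0.89 ± 0.16, adjusted p = 0.000781). The CGR8 fall was called in all alternatives, with log2 values of -0.99 to -0.70 and adjusted p up to 0.00583. In NIH/3T3 the change at 2 h was -0.13, and it was called without replicate A of 2 h (-0.33, adjusted p = 0.0137) and by voom (-0.32, adjusted p = 0.000661). At 48 h in NIH/3T3 Bak1 was at -0.27 (interval -0.54 to -0.00, adjusted p = 0.0835), called by voom (adjusted p = 0.000229) and by the fit of the groups alone (adjusted p = 0.00439). The CGR8 value at 5 h, -0.27 (adjusted p = 0.178), was called with library size alone (-0.37, adjusted p = 0.0381).

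Among the BH3-only genes, Bcl2l11 and Bbc3 were lower at 5 h in both lines, and Bcl2l11 was lower at 48 h in both. Bcl2l11 encodes BIM, which binds every protector. NIH/3T3 libraries held 20.6, 18.7 and 18.6 CPM of it at 0 h, 19.7, 19.8 and 12.6 after 1 h and 18.4, 23.7 and 22.5 after 2 h. They held 12.2, 12 and 13.9 CPM after 5 h and 12.8, 13.6 and 13.2 after 48 h. The 2 h and 0 h libraries overlapped, those at 5 h and 48 h were below both, and replicate C at 1 h lay as low as the latter. In CGR8 the level was 10.2, 9.72 and 9.12 CPM at 0 h, 8.37, 7.9 and 7.03 after 1 h and 5.33, 6.11 and 5.6 after 2 h. It was 5.24, 5.44 and 4.86 CPM after 5 h and 6.12, 6.15 and 6.21 after 48 h, and every later library of this line was below those at 0 h. In CGR8 Bcl2l11 fell to 0.586 of the 0 h level at 2 h (log2 -0.77 ± 0.12, adjusted p = 0.000519), 0.534 at 5 h (-0.91 ± 0.12, adjusted p = 1.82e-05) and 0.635 at 48 h (-0.65 ± 0.12, adjusted p = 0.000568). In NIH/3T3 it fell to 0.66 at 5 h (-0.60 ± 0.15, adjusted p = 0.00277) and 0.682 at 48 h (-0.55 ± 0.15, adjusted p = 0.00479), and its change at 2 h was 0.16 (interval -0.14 to 0.46).

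Bbc3 encodes PUMA, a potent BH3-only protein and a textbook target of p53. Its NIH/3T3 level was 9.72, 8.58 and 10.3 CPM at 0 h, 8.19, 7.88 and 7.82 after 1 h and 6.16, 6.6 and 6.76 after 2 h. It was 7.25, 6.8 and 7.01 CPM after 5 h and 10.7, 10.6 and 11.8 after 48 h. The 3 libraries of 2 h were the lowest of the line and those of 48 h the highest. For CGR8 the level was 10.3, 8.63 and 7.91 CPM at 0 h, 5.14, 6.35 and 5.62 after 1 h and 4.86, 3.82 and 3.02 after 2 h. After 5 h it was 6.66, 5.79 and 4.82 CPM, and after 48 h 13.4, 13.5 and 11.4. Here too the 48 h libraries were the highest, and the lowest library was one of 2 h. Bbc3 fell at 2 h to 0.683 of the 0 h level in NIH/3T3 (log2 -0.55 ± 0.10, adjusted p = 0.00107) and to 0.433 in CGR8 (-1.21 ± 0.18, adjusted p = 0.000413). It was still lower at 5 h (-0.44 ± 0.10, adjusted p = 0.00186, and -0.64 ± 0.17, adjusted p = 0.0056).
From 5 h to 48 h Bbc3 rose in NIH/3T3 by 0.65 ± 0.10 and in CGR8 by 1.15 ± 0.17 on the log2 scale (adjusted p = 3.38e-05 and 4.03e-05). In that comparison 7 of 9 members (65.6% of all genes) and 5 of 10 (57.5%) were called. At 48 h it was above the 0 h level in CGR8 (0.51 ± 0.17, adjusted p = 0.0318). This call was lost on leaving out replicate B or C of 0 h (adjusted p = 0.0809 and 0.117) or replicate A or B of 48 h (adjusted p = 0.0892 and 0.101), with adjusted p from 0.00556 to 0.117 over all alternatives. In NIH/3T3 the value at 48 h was 0.21 (interval -0.00 to 0.42, adjusted p = 0.0874), called with library size alone (0.29, adjusted p = 0.0274), with a filter at 5 CPM (adjusted p = 0.0469) and by voom (adjusted p = 0.0322). Levels at 1 h lay between those of 0 h and 2 h in both lines and were not called (adjusted p = 0.331 and 0.186), except by voom in both (adjusted p = 0.0381 and 0.00225) and in CGR8 by DESeq2 (0.0443) and with no filter (0.024).

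Pmaip1 encodes NOXA, the BH3-only protein that pairs with MCL1. In NIH/3T3 it had 0 counts in 14 of 15 libraries and 1 count in replicate A at 48 h. CGR8 libraries held 3.31, 2.18 and 4.35 CPM at 0 h, 3.04, 4.01 and 4.83 after 1 h and 3.05, 6.32 and 5.78 after 2 h. They held 5.41, 4.61 and 5.71 CPM after 5 h and 4.99, 9.66 and 10.1 after 48 h. Replicate A lay below the other libraries at 2 h and at 48 h, and all 48 h libraries were above those at 0 h. The rise at 48 h was 2.51-fold (log2 1.33 ± 0.30, adjusted p = 0.00385). The changes at 2 h and 5 h were 0.63 (interval -0.02 to 1.29, adjusted p = 0.155) and 0.68 (interval 0.02 to 1.34, adjusted p = 0.0766). The 2 h value was called without replicate A of 2 h (0.88, adjusted p = 0.041) and with no filter (adjusted p = 0.0269). The 5 h value was called without replicate C of 0 h (0.92, adjusted p = 0.0396), by DESeq2 (adjusted p = 0.0441) and with a replicate block (adjusted p = 0.0397). It was also called with the groups alone (adjusted p = 0.0461) and with no filter (adjusted p = 0.00516).

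Bid, whose product is cut by caspase-8 and links death receptors to the mitochondrion, moved in opposite directions at 48 h. NIH/3T3 had 46.5, 43.2 and 47 CPM at 0 h, 47.9, 42.6 and 47.8 after 1 h and 56.1, 43.4 and 44.3 after 2 h. It had 39.8, 40.5 and 40.6 CPM after 5 h and 59.9, 55.6 and 55.8 after 48 h. The 48 h libraries were all above those at 0 h. CGR8 had 116, 120 and 114 CPM of Bid at 0 h, 110, 111 and 113 after 1 h and 129, 96.6 and 98.4 after 2 h. It had 64, 53.4 and 57.7 CPM after 5 h and 77.1, 70.6 and 62.5 after 48 h. The CGR8 libraries thus fell into a high group at 0 to 2 h and a low group at 5 and 48 h, which did not overlap. Bid fell at 5 h in CGR8 to 0.5 of the 0 h level (log2 interval -1.25 to -0.75, adjusted p = 7.84e-06), and from 2 h to 5 h its change was -0.88 ± 0.12 (adjusted p = 0.00018). At 48 h it was at 0.601 of the 0 h level (-0.74 ± 0.12, adjusted p = 0.000231). Bcl2l13, which overlaps Bid on the opposite strand, fell in CGR8 at 5 h (-0.43 ± 0.11, adjusted p = 0.00506), and at 48 h it was at 0.03 (adjusted p = 0.883). In NIH/3T3 Bid was 1.25-fold higher at 48 h (0.33 ± 0.10, adjusted p = 0.00936). At 5 h its change was -0.18 (interval -0.38 to 0.03, adjusted p = 0.138), which voom and the fit of the groups alone called (adjusted p = 0.00809 and 0.0372).

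Bmf, a BH3-only gene whose product is kept on the cytoskeleton, was scarce in NIH/3T3, with 13 to 53 counts per library. Its level there was 0.839, 1.28 and 0.887 CPM at 0 h, 1.25, 0.922 and 1.08 after 1 h and 0.709, 1.76 and 1.28 after 2 h. It was 0.782, 0.553 and 0.65 CPM after 5 h and 1.99, 1.33 and 2.13 after 48 h. The 48 h libraries were above those at 0 h, and 2 h libraries reached into their range. CGR8 libraries had 7.7, 7.38 and 6.53 CPM of Bmf at 0 h, 4.85, 6.35 and 5.97 after 1 h and 6.75, 7.28 and 5.49 after 2 h. After 5 h they had 7.63, 8.29 and 7.46 CPM and after 48 h 5.57, 3.17 and 3.62, all of the last below those at 0 h. Bmf was 1.81-fold higher at 48 h in NIH/3T3 (log2 0.85 ± 0.28, adjusted p = 0.018) and fell to 0.573 of the 0 h level in CGR8 (-0.80 ± 0.19, adjusted p = 0.00439). The NIH/3T3 call was lost on leaving out replicate A or C of 0 h (adjusted p = 0.0642 and 0.075) or replicate A or C of 48 h (adjusted p = 0.0688 and 0.0693). Over all alternatives its log2 change was 0.74 to 1.06 and its adjusted p 0.00158 to 0.075.

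At 0 h the lines, each in its own medium, differed in 8 of the 10 members, beside 79.1% of all genes. Pmaip1 is among the 8, and it passed the filter on low counts only through CGR8. The direction of its call was thus fixed by the filter, and the call adds no support for a difference between the lines. The median log2 difference, CGR8 against NIH/3T3, was 0.15 over all genes. Mcl1 was higher in CGR8 (log2 0.87 ± 0.07, adjusted p = 4.84e-12), as were Bid (1.31 ± 0.11, adjusted p = 8.07e-12) and Bmf (2.80 ± 0.24, adjusted p = 1.99e-11). Bcl2 (-5.36 ± 0.21, adjusted p = 1.68e-19), Bcl2l1 (-1.51 ± 0.12, adjusted p = 6.33e-12) and Bcl2l11 (-1.04 ± 0.13, adjusted p = 5.66e-08) were lower in CGR8. Pmaip1, called higher in CGR8, had a mean of 3.28 CPM there. This mean is 22.1 times the 0.148 CPM that 3 counts make in the NIH/3T3 0 h library with the highest such floor. The lowest CGR8 0 h library held 2.18 CPM. Since TMM factors were computed within each line, these CPM are not scaled between the lines. Bak1 was higher by 0.35 ± 0.15 (adjusted p = 0.0391). That call was lost without replicate A or B of NIH/3T3 (0.35 and 0.25, adjusted p = 0.0707 and 0.175) or without the high replicate B of CGR8 (0.18, adjusted p = 0.284), with adjusted p from 0.0073 to 0.284 over all alternatives. Bbc3 and Bax were not called, with differences of -0.13 (interval -0.42 to 0.15) and -0.15 (interval -0.41 to 0.11), and voom called Bax (-0.19, adjusted p = 0.0253).

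Ordered by CPM per kb of merged exon at 0 h, NIH/3T3 led with Bax (63.8), Mcl1 (48.4), Bcl2l1 (33.2) and Bak1 (31.9). Bid (12.8), Bbc3 (4.49), Bcl2l11 (2.4), Bcl2 (1.23) and Bmf (0.191) followed. CGR8 led with Mcl1 (91.1), Bax (59.4), Bak1 (42) and Bid (32.9). There Bcl2l1 (12), Bbc3 (4.22), Bmf (1.37), Bcl2l11 (1.21), Pmaip1 (1.2) and Bcl2 (0.0303) followed. Neighbours in this order whose libraries overlapped were Bcl2l1 and Bak1 in NIH/3T3, Bmf and Bcl2l11 in CGR8, and Bcl2l11 and Pmaip1 in CGR8. Per kb of median coding transcript, Bcl2l1 (93.3) moved above Mcl1 (77.4) in NIH/3T3. In CGR8, Bid (85.7) then moved above Bak1 (61.4), and Bcl2l11 (3.89) above Bmf (1.87).

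Whether the response itself differed between the lines, each in its own medium, was tested at each time as an interaction in a fit of all 30 libraries. At 1 h, 0 of 10 members were called (0.160% of all genes), 0 had an unadjusted p under 0.05, and DESeq2 and voom called 0. At 2 h Bcl2l11 was the member called (2.02%), with a difference, CGR8 minus NIH/3T3, of -0.88 ± 0.19 (adjusted p = 0.00828). Bbc3 at 2 h was at -0.61 (adjusted p = 0.171) and was called by voom (adjusted p = 0.0429) and without replicate A of CGR8 at 2 h (-0.88, adjusted p = 0.011). At 5 h Mcl1 (0.48 ± 0.10, adjusted p = 0.00143) and Bid (-0.73 ± 0.15, adjusted p = 0.00155) were called, beside 13.3% of all genes. The median difference of all genes at 5 h was 0.13 with TMM factors and -0.06 with library size alone, a shift of -0.19. Relative to these medians Mcl1 was at 0.35 and 0.34, and Bid at -0.86 and -0.87. The Mcl1 call was lost without replicate A or B of CGR8 at 5 h (0.27, adjusted p = 0.0819, and 0.30, adjusted p = 0.0614) and with no filter (0.44, adjusted p = 0.122), its adjusted p running from 3.91e-06 to 0.122. Without replicate A or B the median of all genes was -0.06 and -0.04, and Mcl1 stood 0.34 above it in both. Bcl2l1 at 5 h was at 0.37 (adjusted p = 0.163), Bax at 0.49 (adjusted p = 0.0698) and Bak1 at 0.42 (adjusted p = 0.217), and voom called all 3 (adjusted p = 0.00238, 0.00179 and 0.000756). Bcl2l1 and Bak1 stood 0.24 and 0.29 above the median of all genes, and 0.36 and 0.50 above it by voom. With library size alone their differences were 0.17 and 0.23 (adjusted p = 0.507 and 0.5). Without replicate C of CGR8 at 5 h Bcl2l1 (0.49, adjusted p = 0.0444) and Bax (0.66, adjusted p = 0.00423) were called, and Bax also without replicate B of CGR8 at 0 h (0.56, adjusted p = 0.0448).

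At 48 h the response differed for Bcl2l1, Bak1, Bid and Bmf, 4 of 10 members beside 21.9% of all genes, and each was lower in CGR8 relative to NIH/3T3. The differences were -0.93 ± 0.17 for Bcl2l1 (adjusted p = 0.00022), -0.63 ± 0.22 for Bak1 (adjusted p = 0.036), -1.08 ± 0.15 for Bid (adjusted p = 7.15e-06) and -1.68 ± 0.34 for Bmf (adjusted p = 0.000595). The Bak1 call was lost on leaving out any of 9 of the 12 libraries, with adjusted p from 0.00247 to 0.158 over all alternatives. In NIH/3T3 these were replicates A and B of 0 h (adjusted p = 0.0664 and 0.108) and all of 48 h (0.0711, 0.072 and 0.0557). In CGR8 they were replicate B of 0 h (-0.43, adjusted p = 0.158) and all of 48 h (0.0596, 0.0587 and 0.0796). Mcl1 at 48 h was at 0.21 (interval 0.01 to 0.41, adjusted p = 0.132), called by DESeq2, voom and the fit of the compared groups (adjusted p = 0.0181, 0.00716 and 0.045). Bax at 48 h was at 0.36 (adjusted p = 0.164), called by voom and the fit of the compared groups (adjusted p = 0.00524 and 0.02). Pmaip1, with almost no counts in NIH/3T3, gave no usable estimate of a difference in response.

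**Figure D4:**
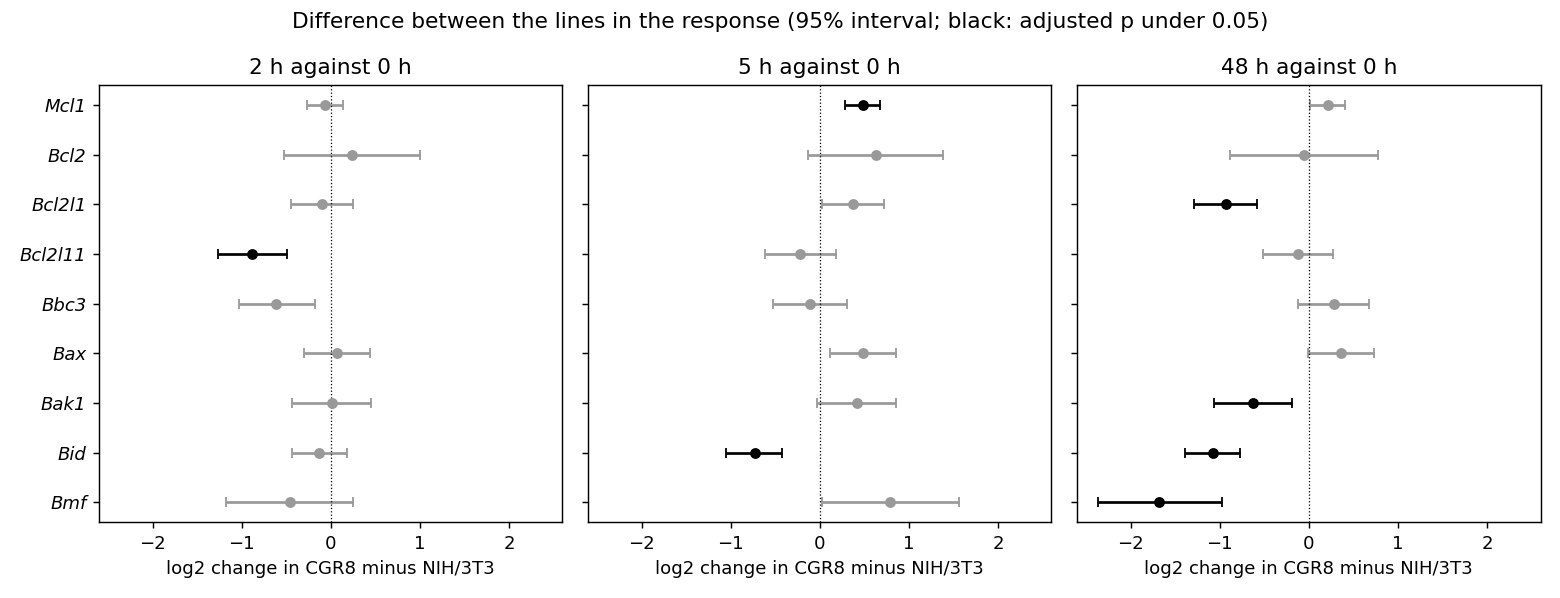
Difference in log2 response to cycloheximide, CGR8 minus NIH/3T3, at 2 h, 5 h and 48 h for 9 members (Pmaip1 left out, with almost no counts in NIH/3T3); points are the fitted values, bars their 95% intervals, and black marks an adjusted p under 0.05. Bcl2l11 is black at 2 h, Mcl1 and Bid on opposite sides of 0 at 5 h, and Bcl2l1, Bak1, Bid and Bmf below 0 at 48 h.

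Other genes of the apoptosis pathway were taken from 5 lists with 62 genes in the table, of which 52 were tested in NIH/3T3 and 56 in CGR8. For these genes only the number called was followed over the alternatives, so single calls near the threshold may not hold. At 1, 2, 5 and 48 h, 1, 17, 27 and 29 of the 52 were called in NIH/3T3, where 0.732%, 35.0%, 51.0% and 52.3% of all genes were. In CGR8 2, 16, 35 and 22 of the 56 were called, beside 0.270%, 19.9%, 52.1% and 27.8% of all genes. Counts of the single lists at 5 h are likewise to be read against 51.0% of all genes in NIH/3T3 and 52.1% in CGR8. At 5 h 8 were higher and 19 lower in NIH/3T3 and 14 higher and 21 lower in CGR8, with medians of -0.08 and -0.07 beside -0.01 over all genes. Of the other BCL2 family genes, 2 of the 4 tested in NIH/3T3 were called at 5 h (both lower), as were 4 of the 7 tested in CGR8 (2 in each direction), both near the share of all genes. Bok, a relative of Bax and Bak1, fell in NIH/3T3 from 39.5 ± 5.34 CPM at 0 h (SD, n = 3) to 27.4 ± 1.6 at 5 h and 24.1 ± 1.52 at 48 h (log2 -0.53 and -0.72, adjusted p = 0.00428 and 0.000408). In CGR8 Bok fell from 10.7 ± 1.1 to 5.61 ± 0.44 CPM at 48 h (-0.93, adjusted p = 0.000563). Bcl2l2, which encodes the protector BCL-W, rose in NIH/3T3 at 48 h from 16.5 ± 0.775 to 22 ± 1.08 CPM (0.42, adjusted p = 0.0318). In CGR8 at 5 h Bcl2l14 rose from 4.51 ± 0.766 to 7.43 ± 0.99 CPM (0.72, adjusted p = 0.00283).

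Downstream of the mitochondrion, 7 of 19 genes were called at 5 h in NIH/3T3 (2 higher, 5 lower; 51.0% of all genes) and 12 of 19 in CGR8 (9 higher, 3 lower; 52.1%). Apaf1, the scaffold of the apoptosome, was lower at 5 h and higher at 48 h in both lines. Its level in NIH/3T3 went from 48.4 ± 4.37 CPM at 0 h to 23.5 ± 1.12 at 5 h (log2 -1.04, adjusted p = 0.000119) and 78.3 ± 0.772 at 48 h (0.70, adjusted p = 0.00246). In CGR8 it went from 26.7 ± 3.62 to 13.6 ± 3.87 (-0.98, adjusted p = 0.000527) and 39 ± 6.22 CPM (0.54, adjusted p = 0.0378). At 48 h the caspase gene Casp6 fell in NIH/3T3 (-1.41, adjusted p = 1.78e-08), and Casp9, the caspase that APAF1 activates, fell in CGR8 (-0.92, adjusted p = 3.72e-05). Birc2, which encodes the ubiquitin ligase cIAP1, rose at 5 h in NIH/3T3 (0.83, adjusted p = 1.06e-05), and the nuclease gene Endog rose at 5 h in CGR8 (0.74, adjusted p = 0.025).

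In the death receptor arm, 5 of 8 genes were called at 5 h in NIH/3T3 (1 higher, 4 lower), where 51.0% of all genes were, and 3 of 7 in CGR8 (1 higher, 2 lower), where 52.1% were. The receptor gene Tnfrsf10b fell in NIH/3T3 from 62.4 ± 2.36 to 32.4 ± 1.18 CPM at 5 h (log2 -0.95, adjusted p = 3.67e-07), and Fas rose from 4.21 ± 0.267 to 10.9 ± 0.875 CPM at 48 h (1.36, adjusted p = 4.36e-07). Casp8, the caspase that cuts BID, rose in NIH/3T3 at 5 h (0.21, adjusted p = 0.044). In CGR8, Ripk1 fell at 5 h (-0.52, adjusted p = 0.00108) and Cflar, which encodes the caspase-8 inhibitor FLIP, rose at 48 h from 2.98 ± 0.859 to 7.81 ± 1.13 CPM (1.38, adjusted p = 0.000812). The adaptor gene Tradd fell at 48 h in both lines (-0.61 and -0.78, adjusted p = 0.00328 and 0.00897).

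Of the genes whose products act on MCL1 protein, 4 of 10 were called in NIH/3T3 at 5 h (3 higher, 1 lower), beside 51.0% of all genes, and 6 of 11 in CGR8 (1 higher, 5 lower), beside 52.1%. Protein activity was not measured, and the media of the lines differed. GSK3 marks MCL1 for degradation. Its gene Gsk3b rose from 65.9 ± 7.06 to 112 ± 1.47 CPM at 48 h in NIH/3T3 (log2 0.76, adjusted p = 0.000206) and fell from 72.5 ± 2.34 to 36.7 ± 9.16 CPM at 5 h in CGR8 (-0.98, adjusted p = 0.000158). Gsk3a fell in NIH/3T3 at 5 h (-0.58, adjusted p = 0.000747), where Cul1, a subunit of the ubiquitin ligases that use F-box proteins, rose (0.48, adjusted p = 0.00283). Skp1a, another subunit of these ligases, rose in CGR8 at 5 h (0.59, adjusted p = 0.000383) and fell in NIH/3T3 at 48 h (-0.83, adjusted p = 9.15e-05). In CGR8 at 48 h Usp13, which encodes a deubiquitinase of MCL1, fell (-0.72, adjusted p = 0.000807) and the ubiquitin ligase gene March5 rose (0.28, adjusted p = 0.0352).

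Of transcription factors and a regulator known to act on family genes, 9 of 11 were called at 5 h in NIH/3T3 (7 lower), beside 51.0% of all genes, and 10 of 12 in CGR8 (9 lower), beside 52.1%. The list's medians were -0.51 and -0.83, beside -0.01 over all genes. Egr1 fell in NIH/3T3 from 117 ± 8.14 CPM at 0 h to 5.91 ± 0.667 at 5 h (log2 -4.31, adjusted p = 3.96e-10). Atf4 rose in NIH/3T3 at 5 h from 424 ± 21.3 to 691 ± 32 CPM (0.71, adjusted p = 4.38e-05) and fell in CGR8 at 48 h from 143 ± 6.69 to 86.2 ± 8.6 CPM (-0.73, adjusted p = 0.000784). In CGR8 the p53 relative Trp73 fell at 5 h (-1.18, adjusted p = 5.22e-06), and Mdm2, which encodes the ubiquitin ligase of p53, rose at 5 h and 48 h (0.46 and 0.65, adjusted p = 0.000529 and 7e-05). In NIH/3T3 at 48 h Foxo3, a known activator of Bcl2l11 and Bbc3, rose from 25.9 ± 1.49 to 67.4 ± 2.64 CPM (1.38, adjusted p = 9.74e-08), and E2f1 fell (-0.77, adjusted p = 1.56e-05).

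The genes whose pattern was most like that of Mcl1 over the 30 libraries, with the mean of each line subtracted from log2 CPM, were Ubap1 (Pearson r = 0.94), Arrdc3 (0.901), Bcl10 (0.89) and Wsb1 (0.854), among 7267 genes compared. These r are descriptions over libraries that share lines and times. Ubap1, which encodes a subunit of the endosomal sorting complex ESCRT-I, went from a mean of 63.3 CPM at 0 h to 91.1 at 2 h and 62.7 at 5 h in NIH/3T3, and from 60.9 to 74.2 and 74.7 CPM in CGR8. Arrdc3, an alpha-arrestin gene, went from 24.9 to 108 and 45.9 CPM in NIH/3T3, and from 66.1 to 188 and 146 CPM in CGR8. Among the members themselves that were compared, r to Mcl1 was 0.481 for Bax, 0.257 for Bcl2l1, 0.181 for Bak1 and -0.152 for Bid.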

How the data were processed

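RNA from 3 replicates of NIH/3T3 and CGR8 at 5 times of cycloheximide was sequenced from libraries of a stranded mRNA kit, per the labels. The authors deposited raw counts per gene, whole numbers for 57186 genes in 30 columns, all used. The submitters' processing notes name STAR, DESeq2 and GRCm39, with no role or version. The counting tool, its use of strand and the annotation release are not given in the sources used here. Symbols came from GENCODE M21 on GRCm38 (90.7% of identifiers matched without the version suffix), also used for gene lengths and overlaps. Promoter sequences are from RefSeq on GRCm38.p6.

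The members and lists were chosen with earlier results of these data known. The analysis used R 4.3.3 and edgeR 4.0.16: filterByExpr (minimum count 10, minimum total 15), TMM factors and the quasi-likelihood F test in 1 model per line (15 libraries) or of all 30 libraries for differences between lines, with p-values adjusted over all genes tested. Intervals are 95% intervals of the fit. CPM are counts divided by the product of the library total and its TMM factor within the line. A floor of 3 counts was set where no counts were seen. Depth limits the precision of Bcl2 in CGR8, Bmf in NIH/3T3 and Pmaip1. No 2 replicates agreed within sampling noise (lowest chi-square per degree of freedom 1.67 over 30 pairs).

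All members were described. From each list, the called genes with the largest rise and fall at 5 h and 48 h in each line were named, at 5 CPM or more at either time. Bcl2l13, which the rule also named, stands beside Bid. Likeness to Mcl1 used genes averaging 10 CPM or more in both lines and a prior count of 2, with predicted genes and pseudogenes passed over, and 1 gene that the rule named is not reported here. The alternatives were RLE factors or library size alone, DESeq2 1.42.0, limma 3.58.1 voom with sample quality weights, fits without a filter or with one at 5 CPM, the compared groups alone, a block for the replicate letter, and fits that left out 1 library each. On simulated counts for 5 h against 0 h, 80.2% of genes changed by a log2 of 1 and 95.5% of those changed by 2 were recovered in NIH/3T3 (13644 genes tested), and 72.8% and 95.7% in CGR8 (15612 genes). False calls made up 3.33% and 2.96% of calls. The simulation changed 86 and 110 of the genes tested in NIH/3T3 by a log2 of 1 and 2, and 103 and 93 in CGR8. In the data 51.0% and 52.1% of all genes were called at 5 h, so the simulation cannot give the rates of these data.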

Additional observations from a re-analysis of the deposited data

Results flagged for a closer look

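A difference between the lines in the response to cycloheximide, tested as an interaction and given as CGR8 minus NIH/3T3 on the log2 scale, drew attention to 7 values. At 2 h it was -0.88 for Bcl2l11, lower than 0 h in 3 of 3 CGR8 libraries and overlapping 0 h in NIH/3T3. At 5 h it was 0.48 for Mcl1, which was above its 0 h level in CGR8 and near it in NIH/3T3, and -0.73 for Bid. At 48 h it was -0.93 for Bcl2l1, -0.63 for Bak1, -1.08 for Bid and -1.68 for Bmf, with Bid and Bmf above the 0 h libraries in NIH/3T3 and below them in CGR8. The values for Mcl1 and Bak1 lost their call when certain libraries were left out, as given above with those libraries.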

How the results depend on the processing

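Of 59 calls of members, 52 held in every other setting where the member was tested and 48 in every fit that left out 1 library, and 0 reversed direction. The exceptions against 0 h and between lines are named above, and those from 2 h to 5 h and from 5 h to 48 h are as follows. From 2 h to 5 h in NIH/3T3, Bak1 (log2 -0.46, adjusted p = 0.0153) lost its call with the compared groups alone (adjusted p = 0.0522) and without replicate A of 2 h or B or C of 5 h (0.0749, 0.0646 and 0.0571). Bmf (-0.95, adjusted p = 0.0423) lost it with library size alone, the replicate block and the compared groups alone (adjusted p = 0.0615, 0.0604 and 0.0859). Bmf also lost it without any of 5 libraries, replicates B and C of 2 h (adjusted p = 0.21 and 0.078) and all of 5 h (0.0592, 0.149 and 0.106). In CGR8 Bbc3 (0.56, adjusted p = 0.0395) lost it with library size alone, voom and the compared groups alone (adjusted p = 0.0681, 0.0641 and 0.175). It was also lost without replicate B or C of 2 h (adjusted p = 0.111 and 0.128) or A or B of 5 h (0.126 and 0.0791). From 5 h to 48 h in NIH/3T3, Mcl1 (-0.23, adjusted p = 0.00694) lost it with library size alone (adjusted p = 0.0542) and no filter (0.112). Bak1 (0.32, adjusted p = 0.035) lost it with RLE factors (adjusted p = 0.0515) and without any 1 of the 6 libraries (0.0505 to 0.104). Bcl2l1 in CGR8 (-0.44, adjusted p = 0.0107) lost it without replicate C of 48 h (adjusted p = 0.0525). The number of members called moved by over 1.5 times as follows, and the cause was not tested. DESeq2 called 1 in NIH/3T3 and 2 in CGR8 at 1 h. Voom called 2 at 1 h, 4 at 2 h and 8 at 48 h in NIH/3T3, 3 at 1 h and 1 from 2 h to 5 h in CGR8, and 2 and 5 differences between lines at 2 h and 5 h. With only the groups compared the numbers were 7 at 48 h and 3 from 2 h to 5 h in NIH/3T3, and 1 from 2 h to 5 h in CGR8. With no filter 1 was called at 1 h in CGR8 and 1 difference between lines at 5 h. Leaving out a library gave 3 to 5 from 2 h to 5 h in NIH/3T3, 1 to 3 in CGR8, and 1 to 2 and 1 to 4 differences between lines at 2 h and 5 h. Among the other apoptosis genes, DESeq2 called 2 at 1 h in NIH/3T3; voom called 14 at 1 h and 36 at 2 h in NIH/3T3 and 6 at 1 h and 34 at 48 h in CGR8; and only the groups compared gave 7 at 2 h in CGR8. Leaving out a library gave 1 to 2 at 1 h and 7 to 23 at 2 h in NIH/3T3, and 1 to 2 at 1 h, 9 to 19 at 2 h and 14 to 18 at 48 h in CGR8. With the replicate letter as a block, 4 members were called at 5 h in NIH/3T3 and 7 in CGR8, and no count of members moved by over 1.5 times; 13 of 30 same-letter pairs in NIH/3T3 and 12 of 30 in CGR8 correlated above 0.1, so the letters were not taken to pair the libraries, and 6 of 15 libraries in each line correlated best with their own letter. Library totals in place of TMM factors moved 13 of 100 mean levels by more than 1 SD, and another transcript length moved 6 of 20 ranks. In CGR8 at 5 h, scaling by library size moved the all-gene median by -0.10. Bcl2 in CGR8, at 4 to 11 counts, and Bmf in NIH/3T3, at 13 to 53, are the members that depth limits most.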
